A study of Mus musculus with 9 samples.

Results

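The cells that line the liver's sinusoids were followed through 10 genes: 7 markers of sinusoidal endothelium (Stab1, Stab2, Lyve1, Clec4g, Oit3, Fcgr2b and Kdr) and 3 genes associated with capillarized endothelium (Pecam1, Cd34 and Plvap). They were taken by gene symbol from a table of 54532 genes, and all 10 passed the filter on low values. Whole-liver messenger RNA was measured in 9 poly(A) libraries from wild-type male C57BL/6J mice, 3 libraries per group, and the labels give no age. The first group received normal chow and vehicle (called chow below), the second CDAA-HFD, a high-fat diet made with defined amino acids and no choline that produces steatohepatitis and fibrosis, with vehicle (called vehicle), and the third CDAA-HFD with the compound 326E at 30 mg/kg for 6 weeks (called 326E). The series title names ATP citrate lyase and PPARα as targets of 326E. The titles of all libraries begin with MCD, whereas the protocol describes CDAA-HFD and chow feeding; the groups here follow the protocol. No label states whether the libraries came from different animals, so p-values measure the spread between these samples, which may be technical.

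Sinusoidal endothelial cells are the specialised capillary cells of the liver. In the healthy organ they carry open pores called fenestrae, lack a continuous basement membrane and take up waste molecules through scavenger receptors. In chronic injury they can lose their fenestrae, gain a basement membrane and take on markers of ordinary capillaries, a change known as capillarization. Because the libraries came from whole liver, fewer cells of a type and less RNA per cell cannot be told apart.

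Assigned reads ran from 13275888 to 17058316 per library. Levels are in FPKM as deposited, which scales the reads of a gene to its length and to the size of the library, and 1 read in a gene of 2 kb was worth 0.0246 to 0.0455 FPKM. Vehicle replicates 1 and 3 stood apart in immediate early genes, the rapid first response of cells to a stimulus: the 8 listed ones summed to 509 and 844 FPKM there, to 84.7 FPKM in vehicle replicate 2 and to 27.2 to 61.8 FPKM in the other libraries. The hepatocyte markers summed to 36300 to 43400 FPKM in chow, 24200 to 38200 in vehicle and 22400 to 31600 in 326E libraries. Of 5 hepatocyte genes 3 fell on the diet, among them Ttr (log2 -1.28) and Hnf4a (log2 -0.81), and 0 of 5 passed for 326E against vehicle. Scaled to total assigned reads, 1 of 5 fell on the diet, Ttr (log2 -0.88).

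The 10 genes stood at quite different levels per length. In chow livers the mean FPKM, from highest to lowest, was 22.7 for Plvap, 15.6 for Clec4g, 15.1 for Oit3, 13.1 for Fcgr2b, 9.09 for Kdr, 7.51 for Stab2, 5.11 for Stab1, 4.91 for Pecam1, 4.89 for Lyve1 and 0.195 for Cd34. The library ranges of Clec4g and Oit3 overlapped, as did those of Stab1, Pecam1 and Lyve1 along the order, and the other neighbours were separate. Plvap, which forms the diaphragms of endothelial pores and caveolae, was thus the most abundant of the 10 in healthy liver. Cd34, a sialomucin of capillary endothelium, haematopoietic progenitors and some fibroblasts, rested on 12 to 21 reads per chow library. It passed the filter only through the CDAA-HFD groups. In vehicle livers Plvap was still first (40.9 FPKM) and Cd34 last (1.57 FPKM), while Lyve1 had moved from the ninth to the fourth place (13.5 FPKM) and Kdr from the fifth to the ninth (6.41 FPKM). In 326E livers Lyve1 was the fifth (9.89 FPKM) and Kdr the seventh (8.78 FPKM), with overlapping ranges between Lyve1, Stab2, Kdr, Stab1 and Pecam1 from each to the next.

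**Figure D1:**
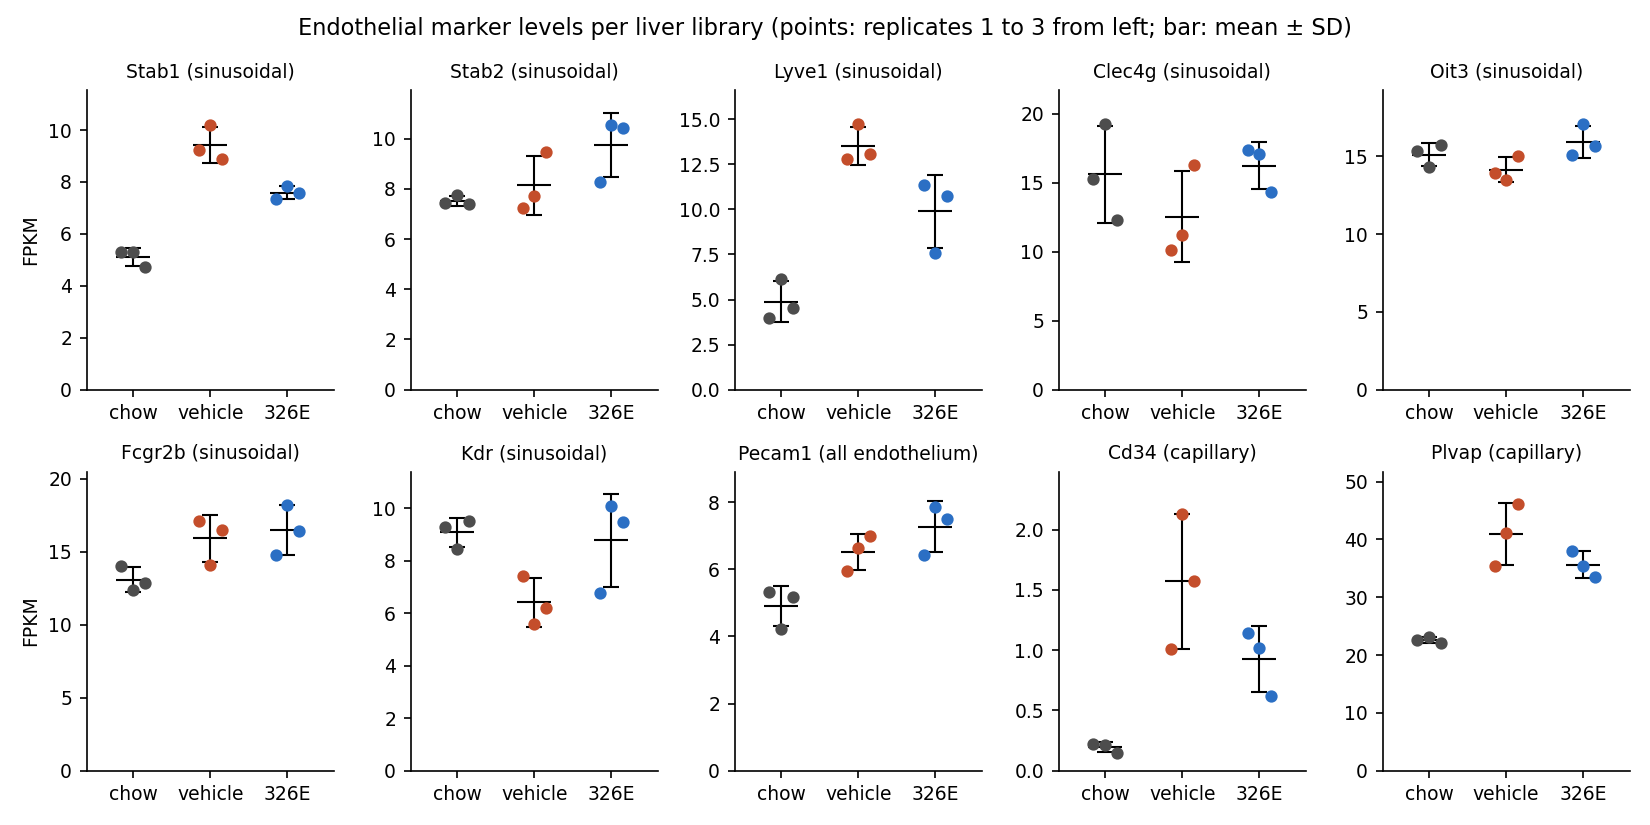
Level of each of the 10 genes in FPKM (vertical axes, each starting at 0) in the 3 chow, 3 vehicle and 3 326E libraries, with points for replicates 1 to 3 from left to right and a bar for the mean ± SD. Stab1, Lyve1, Plvap and Cd34 are lowest in chow and have their highest mean in vehicle, whereas Kdr has its lowest mean in vehicle.

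Promoter sequence is shown for the 2 stabilins, whose levels parted on the diet, and for Kdr and Cd34, which changed in opposite directions. RefSeq's promoter table (GRCm38.p6, the mm10 assembly) matched 6 of the 10 genes. The stretches below, 5′ to 3′ on the gene's strand, end at the base before the annotated gene. Capitals mark matches on either strand to CAGGAA, a core bound by ETS factors, or CCACCC, bound by KLF factors. These are Stab1 at chr14:31168642-31168891 (minus strand), Stab2 at chr10:87008026-87008192 (minus strand), Kdr at chr5:75978459-75978705 (minus strand) and Cd34 at chr1:194938571-194938818 (plus strand).
Stab1: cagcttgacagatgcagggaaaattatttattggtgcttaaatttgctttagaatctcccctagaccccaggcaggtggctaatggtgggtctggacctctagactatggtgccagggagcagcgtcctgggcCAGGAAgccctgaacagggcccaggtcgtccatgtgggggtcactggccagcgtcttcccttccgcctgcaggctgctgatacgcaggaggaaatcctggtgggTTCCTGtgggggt
Stab2: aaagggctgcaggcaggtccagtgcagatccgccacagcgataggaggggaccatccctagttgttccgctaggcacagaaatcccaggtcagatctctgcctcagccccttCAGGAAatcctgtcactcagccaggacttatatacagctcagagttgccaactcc
Kdr: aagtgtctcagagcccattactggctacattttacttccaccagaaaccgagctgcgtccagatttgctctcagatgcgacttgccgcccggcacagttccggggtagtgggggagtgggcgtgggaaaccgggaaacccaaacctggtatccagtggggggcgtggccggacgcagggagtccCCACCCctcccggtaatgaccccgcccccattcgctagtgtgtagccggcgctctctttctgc
Cd34: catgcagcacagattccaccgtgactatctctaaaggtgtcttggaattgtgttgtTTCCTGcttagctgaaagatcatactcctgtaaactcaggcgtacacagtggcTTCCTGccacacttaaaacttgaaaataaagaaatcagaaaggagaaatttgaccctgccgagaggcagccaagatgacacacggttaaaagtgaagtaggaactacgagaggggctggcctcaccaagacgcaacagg
The ETS core occurred at 2 places in Stab1, 1 in Stab2 and 2 in Cd34, and the KLF core at 1 place in Kdr. Among 32851 promoter windows of 250 bases, 25.7% held the ETS core and 28.1% the KLF core on either strand. The core of GATA factors, AGATAA, was present in 9.99% of windows and had 0 matches in the windows of the 6 genes. Such matches describe the letters only.

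The first comparison, vehicle against chow, addressed what the CDAA-HFD did to these markers. Stab1, Lyve1, Plvap, Cd34 and Pecam1 rose and Kdr fell, while Stab2, Clec4g, Oit3 and Fcgr2b did not pass the test. The capillary markers Cd34 and Plvap rose, as did Pecam1, a gene of all endothelium. The sinusoidal markers Stab1 and Lyve1 rose too, so the groups of markers did not move as blocks. Of the 10, 5 were higher and 1 lower at an adjusted p under 0.05, where 41.6% of all tested genes were called in either direction, 20.8% higher and 20.8% lower. The median difference over the 10 genes was 0.30 in log2(FPKM + 1), against -0.04 over all genes tested. It was 0.09 for the 7 sinusoidal markers (2 rose, 1 fell) and 0.82 for Pecam1, Cd34 and Plvap (3 rose). The vehicle and chow libraries did not overlap for 7 of the 10 genes, against 51.9% of all genes. Cd34, among the 5 higher genes and the 7 without overlap, passed the filter only through the CDAA-HFD groups.

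Stab1 (ENSMUSG00000042286; chromosome 14, 31139013 to 31168641 in mm10) encodes stabilin-1, a scavenger receptor of sinusoidal endothelium that some macrophages also carry. Its level was 5.31, 5.29 and 4.72 FPKM in chow replicates 1, 2 and 3 and 9.22, 10.2 and 8.88 FPKM in vehicle. All vehicle libraries lay above all chow libraries. The ratio of means was 1.85 (log2 difference 0.77 ± 0.09 SE, adjusted p = 0.000159). Its relative Stab2 (ENSMUSG00000035459; chromosome 10, 86841198 to 87008025), the main endocytic receptor for hyaluronan in the sinusoids, stood at 7.42, 7.74 and 7.38 FPKM in chow and 7.22, 7.73 and 9.46 FPKM in vehicle. These groups overlapped. The log2 difference was 0.09 with a 95% interval of -0.18 to 0.37 (adjusted p = 0.567), and without vehicle replicate 3, the highest of them, it was -0.01.

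Lyve1 (ENSMUSG00000030787; chromosome 7, 110850607 to 110863239), a hyaluronan receptor of sinusoidal and lymphatic endothelium and of some resident macrophages, had the highest fold among the sinusoidal markers. It stood at 3.98, 6.14 and 4.55 FPKM in chow and at 12.8, 14.7 and 13.1 FPKM in vehicle. The lowest vehicle library was above the highest chow library. The ratio of means was 2.77 (log2 1.32 ± 0.17, adjusted p = 0.00036).

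Macrophage markers, of cells that can carry Stab1 or Lyve1, moved with these genes, and their part in the rises was not tested. The 7 recruited macrophage markers had a summed level of 88.4 to 96.2 FPKM in chow and 718 to 1200 FPKM in vehicle. All 7 rose, but 5 of them were under 0.5 FPKM in every chow library and entered the test only through the CDAA-HFD groups. Trem2, a lipid receptor, and Itgax, an integrin, led them (log2 3.47 and 3.61). Of 7 genes listed as Kupffer cell markers 4 rose (Adgre1, Csf1r, Cd5l and Marco) and 1 fell, and the sum went from 163 to 187 FPKM to 231 to 307 FPKM. Adgre1 (F4/80) rose by log2 1.67 and Timd4, a receptor of long-resident cells, fell by 1.51. Clec4f, a lectin of Kupffer cells, had a difference of -0.36 and did not pass. Nor did Vsig4, with means of 32.26 FPKM in chow and 32.12 FPKM in vehicle. With only vehicle replicate 2 kept, an alternative chosen after seeing the data in which the lone library is assumed to vary like the other groups, 2 Kupffer cell markers rose and 1 fell. The lymphatic sums overlapped, at 17.0 to 30.4 FPKM in chow and 19.0 to 25.8 FPKM in vehicle. Most of each sum was Prox1, at 25.32, 15.45 and 12.51 FPKM in chow and 13.13, 15.94 and 10.28 FPKM in vehicle. The overlap therefore does not describe the other lymphatic markers. Of 4 tested markers 1, Reln, rose (log2 0.89). No gene of these lists was at 0 in every library.

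Kdr (ENSMUSG00000062960; chromosome 5, 75932827 to 75978458), which encodes VEGF receptor 2, was the member that fell. Its level was 9.28, 8.46 and 9.52 FPKM in chow and 7.43, 5.60 and 6.21 FPKM in vehicle. Each vehicle library was below each chow library. The mean was 1.42-fold lower (log2 -0.45 ± 0.15, adjusted p = 0.0361). The call was close to the threshold: without chow replicate 1, 2 or 3 or vehicle replicate 2 or 3 the value was -0.44, -0.50, -0.42, -0.37 or -0.43 and did not pass (adjusted p = 0.0513 to 0.111). Scaled to total assigned reads it was -0.10 (adjusted p = 0.602), below the median of all genes under that scaling, 0.25.

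Clec4g, Oit3 and Fcgr2b are lectin, zona pellucida-domain and Fc receptor genes of the sinusoidal lining. Clec4g (ENSMUSG00000074491; chromosome 8, 3707064 to 3720651), the lectin LSECtin, stood at 15.3, 19.3 and 12.3 FPKM in chow and 10.1, 11.2 and 16.3 FPKM in vehicle. It had the widest relative spread of the sinusoidal markers in vehicle, and the groups overlapped. Its log2 difference was -0.30 with an interval of -0.74 to 0.15 (adjusted p = 0.256). Oit3 (ENSMUSG00000009654; chromosome 10, 59422958 to 59441778) was among the most even genes, at 15.3, 14.3 and 15.7 FPKM in chow and 13.9, 13.5 and 15.03 FPKM in vehicle. Its interval, -0.29 to 0.11 around -0.09 (adjusted p = 0.441), was the narrowest of the uncalled members under the deposited scaling. Scaled to total assigned reads, the values of Clec4g and Oit3 turned to 0.07 and 0.28, the latter with adjusted p = 0.0355.

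Fcgr2b (ENSMUSG00000026656; chromosome 1, 170958617 to 170976547), the inhibitory Fc receptor that clears small immune complexes in the sinusoids, stood at 14.0, 12.4 and 12.9 FPKM in chow and 17.1, 14.1 and 16.5 FPKM in vehicle. The groups did not overlap, but vehicle replicate 2 was close to the highest chow library. The log2 difference was 0.26 (interval 0.01 to 0.51, adjusted p = 0.0841), which passed without vehicle replicate 2 (0.34, adjusted p = 0.0475). B cells and macrophages also carry this receptor. The 4 B cell markers summed to 1.22 to 1.67 FPKM in chow and 1.48 to 1.95 in vehicle, and the 1 of them that was tested did not pass.

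Plvap (ENSMUSG00000034845; chromosome 8, 71497765 to 71511752) stood at 22.6, 23.2 and 22.2 FPKM in chow and 35.4, 41.1 and 46.1 FPKM in vehicle. The chow libraries were nearly equal and the vehicle libraries all higher. The ratio of means was 1.80 (log2 0.82 ± 0.11, adjusted p = 0.000438). Gtpbp3 overlaps 1819 bases of it on the other strand, at a mean of 3.16 FPKM in chow and 2.18 in vehicle, and the strand setting is not given in the sources used here, so reads from the shared stretch cannot be told apart. Nt5dc2 likewise overlaps 112 bases of Stab1, with means of 2.13, 5.25 and 9.44 FPKM in chow, vehicle and 326E.

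Cd34 (ENSMUSG00000016494; chromosome 1, 194938819 to 194961279) had the largest ratio of the 10. Its level was 0.223, 0.212 and 0.150 FPKM in chow and 1.01, 2.13 and 1.58 FPKM in vehicle, from 12 to 21 and 120 to 315 reads. The groups were far apart, with a wide range within vehicle. The ratio of means was 8.05, whereas log2(FPKM + 1), which understates low genes, gave 1.08 ± 0.17 (adjusted p = 0.00104). With a pseudocount of 0.1 it was 2.45, with a pseudocount of 5 it was 0.34, and with voom on the reads 2.94. Fibroblasts also carry Cd34. Of 8 stellate cell and fibroblast markers 5 rose, with sums of 12.4 to 18.0 FPKM in chow and 29.0, 65.6 and 51.2 FPKM in vehicle replicates 1, 2 and 3, the order in which Cd34 also stood there. Dpt, a matrix protein of fibroblasts, and Pdgfra, a growth factor receptor, led them (log2 2.28 and 1.49). Their part in the Cd34 level was not tested.

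Pecam1 (ENSMUSG00000020717; chromosome 11, 106654217 to 106750628), the junction protein CD31 of all endothelium, platelets and many leukocytes, stood at 5.32, 4.23 and 5.19 FPKM in chow and 5.95, 6.64 and 7.01 FPKM in vehicle. The groups did not overlap, with chow replicate 2 the lowest. The ratio of means was 1.33 (log2 0.35 ± 0.11, adjusted p = 0.0321). Without chow replicate 2, vehicle replicate 2 or vehicle replicate 3 the value was 0.27, 0.34 or 0.31 and did not pass (adjusted p = 0.0979, 0.0775 and 0.0977). Of 3 tested platelet markers 1, Pf4, rose (log2 2.19), and Ppbp (-0.57) and Itga2b (0.12) did not pass. The 5 platelet markers summed to 1.80 to 4.61 FPKM in chow and 8.99 to 9.38 in vehicle. Most of the vehicle sums was Pf4, at 7.97, 7.92 and 8.29 FPKM, so they do not describe the other platelet markers. The part of platelets and leukocytes in the Pecam1 level was not tested. With only vehicle replicate 2 kept, Stab1, Lyve1, Cd34 and Plvap passed, where 26.1% of all tested genes did, and Kdr (-0.61) and Pecam1 (0.37) did not.

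**Figure D2:**
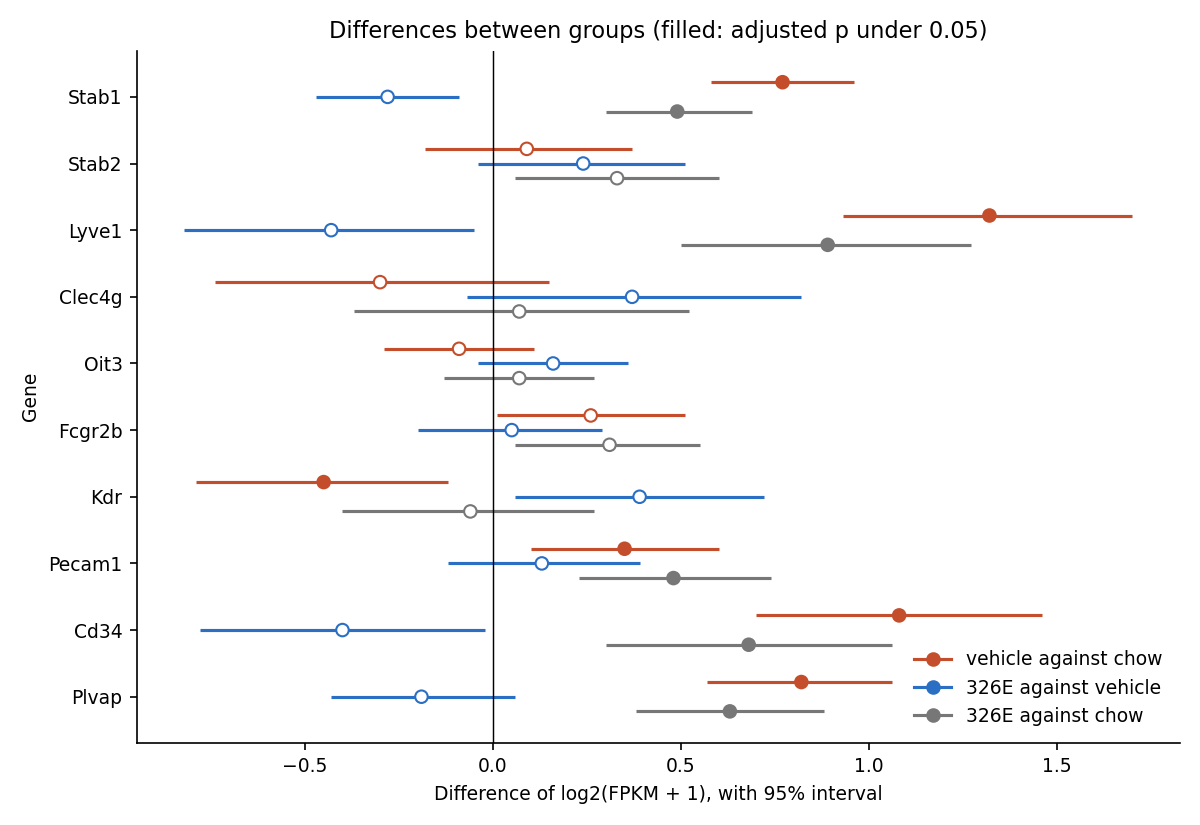
Difference of log2(FPKM + 1) between groups for each gene (points) with its 95% interval (lines). The 3 comparisons share the axes in different colours, and points are filled where the adjusted p was under 0.05. For vehicle against chow 5 points are filled on the right and Kdr on the left, and for 326E against vehicle every point is open.

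**Figure D3:**
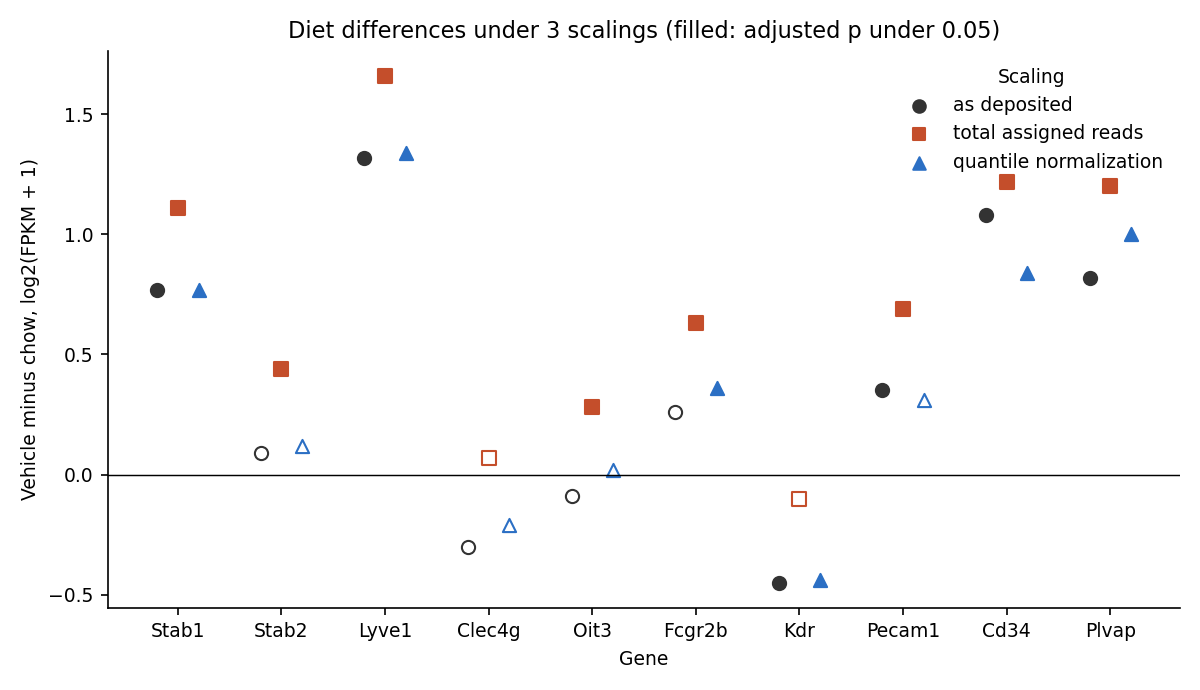
Difference of log2(FPKM + 1) between vehicle and chow for each gene under the deposited scaling (circles), scaling to total assigned reads (squares) and quantile normalization (triangles), filled where the adjusted p was under 0.05. Total-read scaling moves every gene up, so that 8 pass as higher, and Kdr is then open at -0.10.

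The scaling of libraries bears on these directions. The deposited values were scaled between libraries. With total assigned reads instead, the median of all genes moved from -0.04 to 0.25, 84.3% of the called genes were higher where the deposited scaling gave 2859 higher and 2862 lower, and 8 members passed as higher with 0 lower, against 37.1% of all tested genes higher. Stab2 (0.44), Fcgr2b (0.63) and Oit3 (0.28) were then among them.

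Ratios within a library are free of that scaling and are given as descriptions. Plvap over Stab2 was 1.60, 1.58 and 1.59 in log2 in the chow libraries and 2.29, 2.41 and 2.29 in vehicle. Against this sinusoidal receptor Plvap thus stood 1.67-fold higher in the mean of the vehicle libraries. Cd34 over Stab2 was -5.06, -5.19 and -5.62 in chow and -2.84, -1.86 and -2.58 in vehicle. Lyve1 over Stab2 went from -0.90, -0.34 and -0.70 to 0.82, 0.93 and 0.47, so that Lyve1 was below Stab2 in each chow library and above it in each vehicle library. Stab1 over Stab2 went from -0.48, -0.55 and -0.64 to 0.35, 0.40 and -0.09, crossing in 2 of 3 libraries. Stab1 over Plvap was -2.09, -2.13 and -2.23 in chow and -1.94, -2.01 and -2.38 in vehicle. For this ratio of a sinusoidal to a capillary marker the groups overlapped. They did not for the other sinusoidal markers over Plvap: Stab2, Clec4g, Oit3, Fcgr2b and Kdr were lower in vehicle and Lyve1 was higher. Plvap minus the mean of the 7 sinusoidal markers, in log2, was 1.33, 1.28 and 1.35 in chow and 1.74, 1.97 and 2.0 in vehicle. Kdr over Pecam1, both transmembrane proteins of endothelium, went from 0.80, 1.0 and 0.88 to 0.32, -0.25 and -0.17. Over Cdh5, the endothelial cadherin, Kdr stood at 0.02, -0.34 and 0.24 in chow and at 0.13, -0.38 and -0.75 in vehicle, where the groups overlapped.

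**Figure D4:**
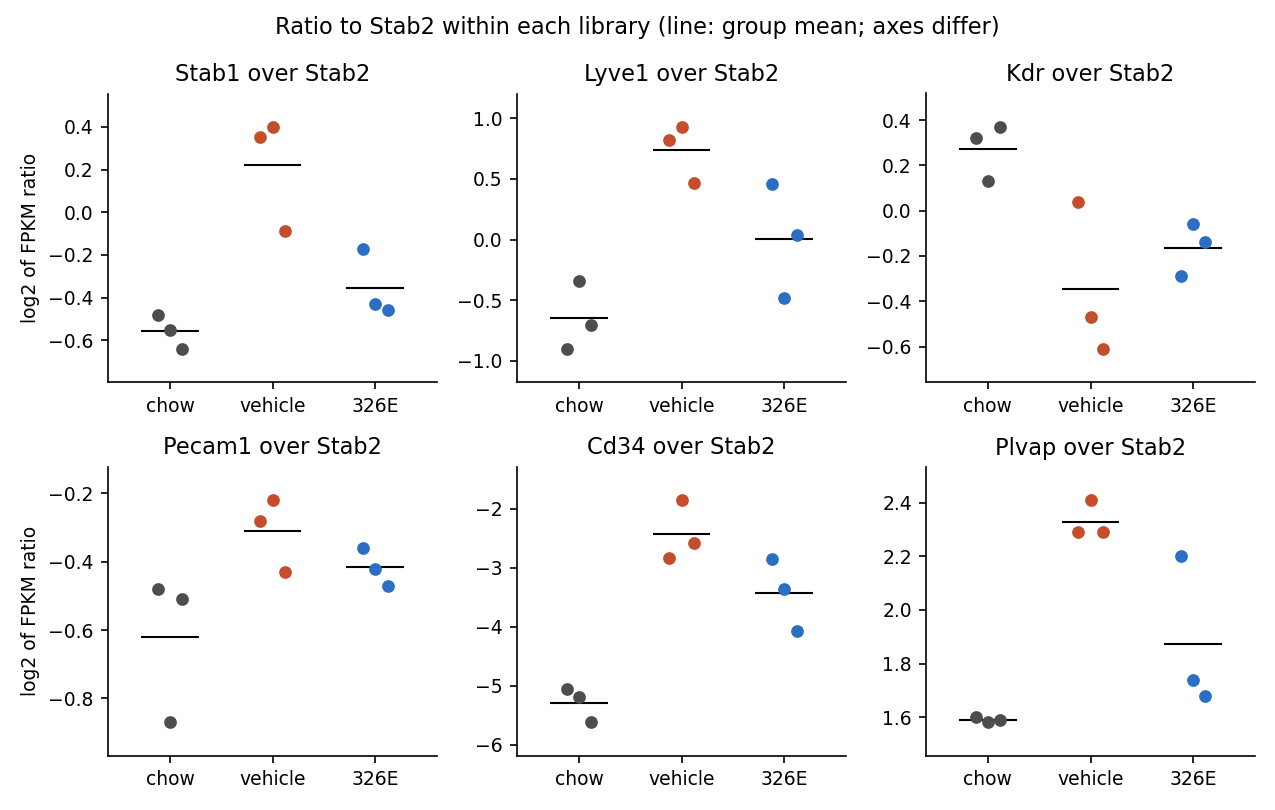
Log2 ratio of the FPKM of 6 genes to that of Stab2 within each library (vertical axes, which differ between panels), with points for replicates 1 to 3 from left to right and a line for the group mean. Plvap over Stab2 lies between 1.58 and 1.60 in chow, between 2.29 and 2.41 in vehicle and between 1.68 and 2.20 in 326E libraries.

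Other endothelial genes on the same diet were also mixed. In 6 lists of such genes 41 of 86 tested, or 47.7%, were called, against the 41.6% of all genes given above. Of the genes that rose, Tfec, Rgcc, Hey1 and Sele were under 0.5 FPKM in every chow library. They entered the test only through the CDAA-HFD groups. Of 19 tested sinusoidal genes outside the 10, 4 rose and 4 fell (median 0.19). Thbd, the thrombin receptor thrombomodulin, went from 1.54, 1.91 and 1.59 FPKM in chow to 10.6, 5.54 and 14.5 FPKM in vehicle (log2 1.98 ± 0.26, adjusted p = 0.000386). It was lowest in vehicle replicate 2, as the immediate early genes were. Tfec, a transcription factor also found in macrophages, rose by log2 0.54. The 4 that fell were Gata4, the transcription factor of sinusoidal identity (log2 -0.46), the secreted DNase Dnase1l3 (-0.49), the endocytic protein Ehd3 (-0.46) and the hepcidin regulator Bmp6 (-0.39). Under total-read scaling none of these 4 passed (-0.14, -0.12, -0.09 and -0.14), and with only vehicle replicate 2 kept Dnase1l3 alone did (-0.72). Of 15 tested genes of continuous, arterial or venous endothelium 6 rose and 0 fell (median 0.34), among them Cd200, an inhibitory ligand (log2 1.43), and Ly6a, a surface antigen with close paralogs whose reads are uncertain (log2 1.76). Of 18 tested genes of all endothelium 6 rose and 1 fell (median 0.16). Ecscr, an endothelial surface protein, rose by log2 0.87, and S1pr1, the sphingosine-1-phosphate receptor of vessel barriers, fell by 0.79. The S1pr1 call was lost without chow replicate 1 or 2, vehicle replicate 1 or 2, or 326E replicate 2 (values -0.65, -0.76, -0.81, -0.51 and -0.79). Cdh5 had a difference of -0.18 with an interval of -0.56 to 0.19.

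Of 12 tested basement membrane genes 9 rose and 1 fell (median 0.76), and Lama4 (0.14) and Nid2 (0.04) did not pass. Col4a1, a chain of type IV collagen, went from 5.82, 4.69 and 6.10 FPKM to 28.6, 33.9 and 25.96 FPKM (log2 2.22 ± 0.15, adjusted p = 1.31e-05), and Nid1, the linker nidogen-1, rose by log2 1.76. Col18a1, which encodes the precursor of endostatin and had the highest level of the 12, went from 96.97, 132.2 and 91.69 FPKM to 58.3, 54.38 and 76.04 FPKM and fell (log2 -0.75, adjusted p = 0.00694). It did not pass under total-read scaling, at -0.36 (adjusted p = 0.0813). The level summed over the 12 genes overlapped, at 115 to 155 FPKM in chow and 129 to 151 FPKM in vehicle. Most of each chow sum was Col18a1, the gene that fell. The overlap therefore does not describe the other basement membrane genes, of which 9 rose. Stellate cells also make these chains, and their part was not tested. Of 5 tested adhesion molecules of activated endothelium 3 rose, led by Vcam1 (log2 2.07) and Icam1 (log2 1.89). Of 17 tested VEGF, angiopoietin and Notch genes 6 rose and 1 fell (median 0.25). The flow-responsive factors Klf4 (log2 1.38) and Klf2 (log2 0.83) led these. Among the immediate early genes 6 of 7 tested rose, Atf3 by log2 6.11 (4.47 with only vehicle replicate 2 kept) and Nr4a1 by 4.57. Nr4a1 was under 0.5 FPKM in every chow library and entered the test only through the CDAA-HFD groups. Klf4 stood at 3.53, 1.11 and 5.62 FPKM in vehicle replicates 1, 2 and 3 and Klf2 at 9.60, 7.35 and 16.4 FPKM. Both were lowest in replicate 2, as the immediate early genes were. Without chow replicate 1 or 3 or vehicle replicate 3 the Klf2 value was 0.72, 0.77 or 0.53 and did not pass, and with only vehicle replicate 2 kept neither passed (0.46 and 0.36). Counts of lists with only that library kept were 3 up and 1 down for the other sinusoidal genes, 4 and 0 for continuous, arterial or venous genes, 2 and 1 for all endothelium, 8 and 1 for basement membrane, 4 and 0 for VEGF, angiopoietin and Notch genes and 2 and 0 for adhesion molecules. Scaled to total assigned reads they were 12 and 0, 10 and 0, 12 and 0, 10 and 0, 9 and 0, and 4 and 0, in the same order. Under that scaling 37.1% of all tested genes were called as higher.

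**Figure D5:**
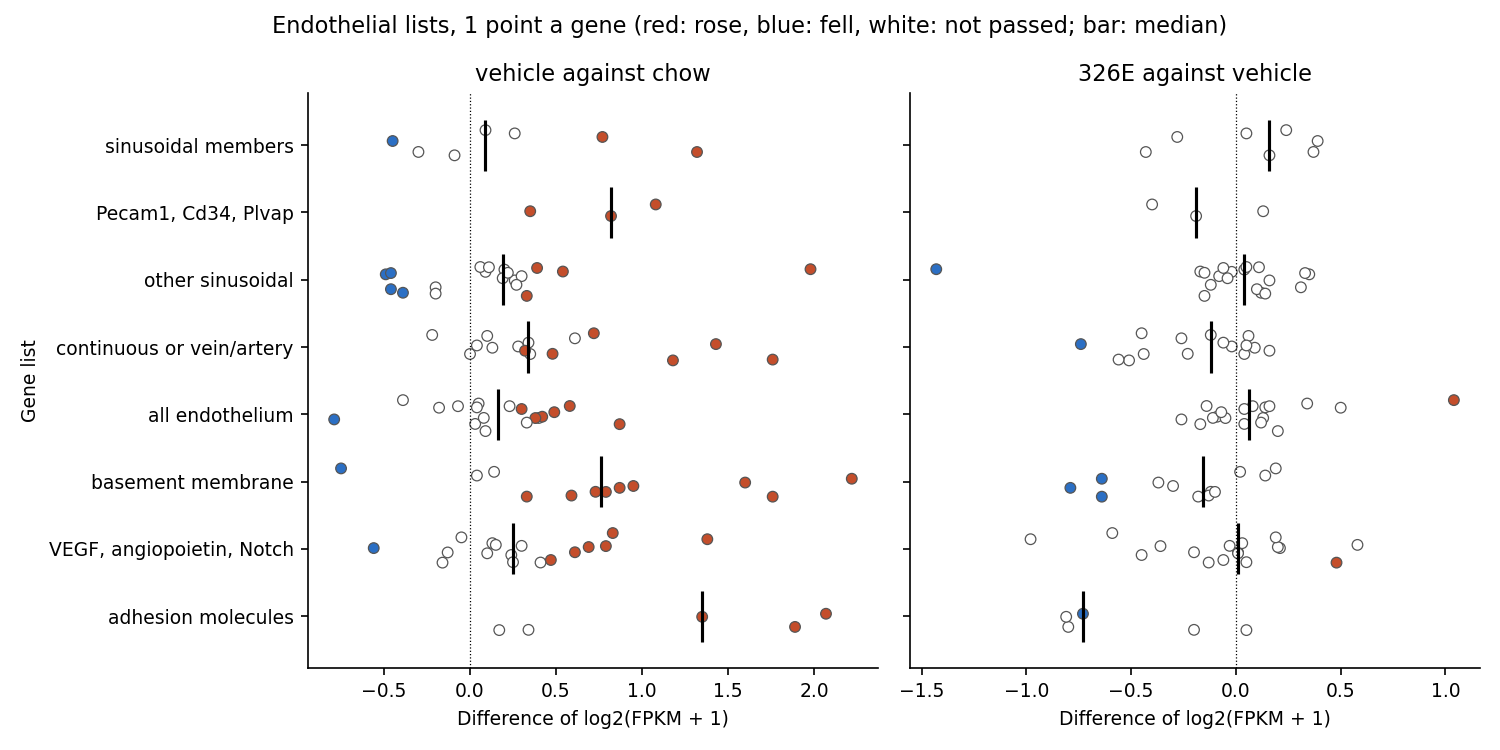
Difference of log2(FPKM + 1) for each tested gene of 8 endothelial lists (1 point a gene, vertical bars at the median), for vehicle against chow (left) and 326E against vehicle (right), red where a gene rose, blue where it fell and white where it did not pass. On the left 9 of 12 basement membrane genes are red, and on the right most points in every list are white.

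The second comparison, 326E against vehicle on CDAA-HFD, addressed the compound and shares the vehicle libraries with the first. None of the 10 genes passed in limma, where 11.5% of all genes were called, 4.96% higher and 6.5% lower. At an unadjusted p under 0.05 there were 4, Stab1, Lyve1, Kdr and Cd34, against 28.1% of all genes. Voom on the reads called 0 of the 10 and 13.5% of all genes. The median over the 10 genes was 0.09, against -0.02 over all genes. The libraries did not overlap for 3 genes, against 33.0% of all genes.

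Stab1 stood at 7.36, 7.83 and 7.59 FPKM in the 326E libraries, each below each vehicle library. Its log2 difference was -0.28 with an interval of -0.47 to -0.09 (adjusted p = 0.0681). Lyve1 stood at 11.4, 7.58 and 10.7 FPKM, also below each vehicle library, with replicate 2 the lowest. Its difference was -0.43 (interval -0.82 to -0.05, adjusted p = 0.136). Among macrophage markers beside these genes, 4 of 7 recruited markers fell (summed level 401 to 750 FPKM, where Trem2 fell by 1.58 and Itgax fell by 1.32), and of 7 Kupffer cell markers 1, Timd4, rose (log2 1.27) and 2 passed as lower: Adgre1 fell by 0.66 and Csf1r fell by 0.55. With only vehicle replicate 2 kept, 2 recruited and 0 Kupffer cell markers passed (Trem2 -1.69, Timd4 1.44, Adgre1 -0.77 and Csf1r -0.59 did not), and scaled to total assigned reads 2 recruited markers did. Their part was not tested.

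Kdr stood at 6.76, 10.1 and 9.48 FPKM in the 326E libraries. Replicate 1 was within the vehicle range and the others above it. Its difference was 0.39 (interval 0.06 to 0.72, adjusted p = 0.123). It passed without 326E replicate 1 (0.55, adjusted p = 0.0367), where 7.08% of all genes were called, and with weights per library (0.49, adjusted p = 0.0404), where 16.1% were. Stab2 stood at 8.26, 10.6 and 10.4 FPKM with a difference of 0.24 (interval -0.04 to 0.51, adjusted p = 0.241). Here too replicate 1 was the lowest, and overlapped vehicle.

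Clec4g stood at 17.4, 17.1 and 14.3 FPKM (difference 0.37, interval -0.07 to 0.82). Oit3 stood at 15.1, 17.1 and 15.7 FPKM (0.16, interval -0.04 to 0.36), each just above the highest vehicle library. Fcgr2b stood at 14.8, 18.2 and 16.5 FPKM (0.05, interval -0.20 to 0.29). These 3 genes did not pass (adjusted p = 0.254, 0.264 and 0.814), and the intervals of Clec4g and Oit3 reach further above 0 than below it. The sign of Fcgr2b turned without vehicle replicate 2 (-0.03) or 326E replicate 2 (-0.02).

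Of the genes associated with capillarized endothelium, Plvap stood at 38.1, 35.4 and 33.5 FPKM, overlapping vehicle. Its difference was -0.19 (interval -0.43 to 0.06, adjusted p = 0.300). Cd34 stood at 1.14, 1.02 and 0.620 FPKM, of which 2 libraries were within the vehicle range and replicate 3 below it, with a difference of -0.40 (interval -0.78 to -0.02, adjusted p = 0.159). Pecam1 stood at 6.42, 7.87 and 7.51 FPKM (0.13, interval -0.12 to 0.39, adjusted p = 0.477). The fibroblast markers, beside Cd34, summed to 31.8 to 43.7 FPKM in the 326E libraries and 0 of 8 passed. Platelet markers summed to 4.10 to 5.73 FPKM and Pf4 fell by 0.93, which did not pass against vehicle replicate 2 alone (-0.91, adjusted p = 0.188). B cell markers summed to 1.66 to 2.67 FPKM with 0 passing, and lymphatic markers to 17.9 to 31.4 FPKM with 0 of 4 passing.

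Within libraries, Plvap over Stab2 was 2.20, 1.74 and 1.68 in log2 under 326E. Each value was below each vehicle library, and replicate 1 was close to them. Cd34 over Stab2 was -2.86, -3.37 and -4.07, Lyve1 over Stab2 0.46, -0.48 and 0.04, and Stab1 over Stab2 -0.17, -0.43 and -0.46. For each of these 4 ratios 326E replicate 1 was the 326E library nearest to vehicle. The 4 share Stab2, which was lowest in that library (8.26 against 10.6 and 10.4 FPKM), so they are not separate observations. By level, Plvap, Cd34 and Lyve1 were highest in that library, whereas Stab1 was lowest (7.36 against 7.83 and 7.59 FPKM). The same library had the highest recruited macrophage sum of its group, 750 against 401 and 408 FPKM, and a link was not tested. Kdr over Pecam1 was 0.07, 0.36 and 0.34, which overlapped vehicle. Plvap minus the mean of the 7 sinusoidal markers was 1.81, 1.57 and 1.52 in log2, against 1.74, 1.97 and 2.0 in vehicle, so these groups overlapped. Taken over Plvap, the markers Stab1, Lyve1, Fcgr2b and Kdr overlapped vehicle, whereas Stab2, Clec4g and Oit3 were higher under 326E without overlap.

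In the 6 lists of other endothelial genes, 8 of 86 tested genes, or 9.3%, were called for 326E, against the 11.5% of all genes given above. Of 19 sinusoidal genes 0 rose and 1 fell, Thbd, which stood at 3.09, 2.66 and 3.01 FPKM (log2 -1.43 ± 0.26, adjusted p = 0.0109). The 326E libraries were even, whereas the vehicle libraries were spread. Of 15 continuous, arterial or venous genes 0 rose and 1 fell, Cd200 (-0.74, adjusted p = 0.0358). Of 18 genes of all endothelium 1 rose and 0 fell: Sox18, a transcription factor of vessel development, went from 3.25, 3.19 and 2.76 to 8.32, 7.55 and 6.31 FPKM (log2 1.04 ± 0.17, adjusted p = 0.00669). Its own diet difference was -0.39 (adjusted p = 0.0884). Of 17 VEGF, angiopoietin and Notch genes 1 rose and 0 fell, the Notch ligand Dll4, from 0.873, 0.984 and 0.768 to 1.51, 1.54 and 1.82 FPKM (log2 0.48 ± 0.09, adjusted p = 0.013). Both genes were above vehicle in 3 of 3 libraries. Of 12 basement membrane chains 0 rose and 3 fell, Col15a1 (-0.79), Col4a1 (-0.64) and Nid1 (-0.64). Of 5 adhesion molecules 1 fell, Vcam1 (-0.73). Immediate early genes, for which 5 of 7 fell (Egr1 fell by 3.76 and Atf3 fell by 3.20), moved beside them, and their part was not tested. With only vehicle replicate 2 kept 0 of 7 immediate early genes passed (Egr1 -1.35 and Atf3 -1.57).

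Single libraries decided several of these calls. That of Cd200 was lost without vehicle replicate 2 or 3 or without 326E replicate 1, 2 or 3 (values -0.62, -0.70, -0.83, -0.76 and -0.65). That of Col4a1 was lost without vehicle replicate 1 or 2 or 326E replicate 1 or 2 (-0.66, -0.54, -0.58 and -0.57), and that of Col15a1 without vehicle replicate 2 or 3 or 326E replicate 2 or 3 (-0.61, -0.82, -0.67 and -0.75). With only vehicle replicate 2 kept, Thbd (-0.74, adjusted p = 0.0466) and Nid1 (-0.83, adjusted p = 0.0372) passed, while Sox18 (1.0, adjusted p = 0.0963), Dll4 (0.40, adjusted p = 0.165) and Vcam1 (-0.87, adjusted p = 0.0661) did not.

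The third comparison, 326E against chow, shares the chow libraries with the first and the 326E libraries with the second. Of the 10 genes 5 were higher and 0 lower, where 26.8% of all genes were called, 14.4% higher and 12.5% lower. Lyve1 was 2.02-fold its chow mean (log2 0.89, adjusted p = 0.00545), Plvap 1.57-fold (0.63, adjusted p = 0.0034), Stab1 1.49-fold (0.49, adjusted p = 0.00336), Pecam1 1.48-fold (0.48, adjusted p = 0.0126) and Cd34 4.75-fold (0.68, adjusted p = 0.0175). In all 5 genes the 326E libraries lay above the chow libraries. Cd34 is counted among them though it passed the filter only through the CDAA-HFD groups. Stab2 (0.33, interval 0.06 to 0.60, adjusted p = 0.0747) and Fcgr2b (0.31, interval 0.06 to 0.55, adjusted p = 0.0668) also lay above chow in every library and did not pass. The libraries thus did not overlap for 7 of the 10, against 45.1% of all genes. Clec4g (0.07, interval -0.37 to 0.52), Oit3 (0.07, interval -0.13 to 0.27) and Kdr (-0.06, interval -0.40 to 0.27) overlapped chow.

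Some of these values rested on single libraries. Without 326E replicate 2, 3 members passed, against 17.7% of all genes, since Pecam1 (0.43, adjusted p = 0.0534) and Cd34 (0.64, adjusted p = 0.0609) did not. Cd34 was lost without chow replicate 3 (0.65) or 326E replicate 1 (0.60) too, Stab2 passed without 326E replicate 1 (0.43, adjusted p = 0.0376), the sign of Clec4g turned without chow replicate 3 (-0.08) and that of Kdr without 326E replicate 1 (0.10). Scaled to total assigned reads, under which the median of all genes moved from -0.02 to 0.24 and the share of higher calls from 53.5% to 87.0%, 8 members passed as higher, against 28.7% of all genes, and Kdr was 0.27 (adjusted p = 0.176).

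For the 6 members called at least once, the genes with the most similar course over the 9 libraries were found among 10204 others, as the smallest mean absolute difference of log2(FPKM + 1) after centring each gene on its chow mean. Nearest to Lyve1 was Csf1r, the growth factor receptor of macrophages (mean absolute difference 0.0762), followed by Gm3776 and Nfam1. Nearest to Stab1 was Cblb, a ubiquitin ligase (0.0552), then C1qtnf1 and Heg1. Cd34 was closest to Adam15, a cell surface protease (0.0574), then Plcg2 and Tbx20. Plvap was closest to Cyth3 (0.0575), then Cap1 and Pitpna, Pecam1 to Dclre1a (0.0572), then Dsc2 and Celf2, and Kdr to Hook1 (0.0626), then Psma3 and Aar2.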

How the data were processed

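Per the submitters' processing notes, the tools were HISAT2 for alignment and featureCounts for counting, with mm10 as the genome build. The strand setting, the annotation release and tool versions are not given in the sources used here. The deposited values are FPKM computed by the authors, with a gene length. Multiplying FPKM by length gave, for 100% of values, a number of reads that was whole within 0.01, so assigned reads could be read back. The library sizes in the FPKM are not these totals but equal median-of-ratios sizes, 0.828 to 1.192 of the totals, so values were already scaled between libraries. The 13737 genes that reached 0.5 FPKM in 3 or more of the 9 libraries were tested. The test was 1 limma fit (3.58.1, under R 4.3.3) over all 9 libraries, with the variance following a trend, of log2(FPKM + 1). P-values were adjusted by Benjamini-Hochberg over all tested genes, separately by comparison. Genes with an adjusted p under 0.05 are said to be called or to pass. Changes are differences of log2(FPKM + 1), which understate low genes. The method was tested on simulated data. Plots were drawn with matplotlib 3.10.9 and tables with pandas 2.3.3 (numpy 2.4.6, Python 3.11.15).

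The 10 genes and the lists of other endothelial and cell type genes were chosen with earlier results of these data known. The genes named are all 10, the 2 called genes with the largest change in each list for the diet and for 326E, and the 3 genes most like each called member. Nid1 and Csf1r for 326E, Cdh5, and the lists' other genes were named after their values were seen. Ccl21a, with 2 entries in the table, was not used. Coordinates of the 10 genes are those of the deposited table and are the same in GENCODE vM21. Tried in its place were leaving out each library, a replicate block, voom on the reads, fits on only the libraries compared, library weights, no variance trend, scaling to total assigned reads, quantile normalization, a filter on a mean of 1 FPKM or none, and pseudocounts of 5 and 0.1. Keeping only vehicle replicate 2 was added after seeing the data.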

Additional observations from a re-analysis of the deposited data

How the results depend on the processing

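The number of genes called went from 5721 to 3456 for vehicle against chow with only vehicle replicate 2 kept. For 326E against vehicle it went from 1574 to 1030 with no filter, to 1037 with a replicate block, to 321 with only vehicle replicate 2 kept, and ranged from 647 to 1635 with each library left out. For 326E against chow it ranged from 2393 to 3711 with each library left out, against 3688.

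Members called for 326E against vehicle went from 0 to 1, Kdr, with library weights, and ranged from 0 to 1 with each library left out. For 326E against chow they went from 5 to 8 with total assigned reads and ranged from 3 to 5 with each library left out, and for the diet from 4 to 6, against 6. Replicate numbers did not pair the libraries (correlations of deviations between same-numbered libraries -0.24 to 0.02). With the replicate block, and with no filter, Kdr (adjusted p = 0.0706 and 0.0689) and Pecam1 (adjusted p = 0.0558 and 0.0533) were lost for the diet. With quantile normalization Pecam1 was lost (0.31, adjusted p = 0.0507) and Fcgr2b passed (0.36, adjusted p = 0.0235) for the diet. Cd34 was not tested at a mean of at least 1 FPKM.

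The sign turned for Oit3 on the diet with quantile normalization (0.02) and total assigned reads (0.28), for Clec4g on the diet with total assigned reads (0.07), and for Kdr in 326E against chow with quantile normalization (0.01), total assigned reads (0.27) and library weights (0.01). With each library left out it turned for Stab2 on the diet (-0.01 to 0.17), Fcgr2b in 326E against vehicle (-0.03 to 0.12), Clec4g in 326E against chow (-0.08 to 0.23) and Kdr in 326E against chow (-0.16 to 0.10). The cause was not tested. Of the other member differences under these settings, 331 kept their direction and side of the threshold, as did 250 with a library left out. Depth limited Cd34 most, at 12 reads in its lowest library.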

Other observations

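Sinusoidal endothelium also secretes signals that act on hepatocytes, called angiocrine factors, and 5 of their genes were read out after their values were seen. Bmp6, which drives hepcidin and so limits iron uptake, stood at 2.09, 1.84 and 2.68 FPKM in chow and at 1.41, 1.29 and 1.59 FPKM in vehicle libraries. All vehicle libraries were below the chow libraries, and Bmp6 fell (log2 -0.39 ± 0.11, adjusted p = 0.0212 in limma over all genes). Bmp6 did not pass under total-read scaling (-0.14, adjusted p = 0.34) or with vehicle replicate 2 as the lone vehicle library (-0.48, adjusted p = 0.0789). For its partner Bmp2 the chow mean was 9.27 ± 0.626 FPKM and the vehicle mean 9.94 ± 1.47 FPKM (SD, n = 3 libraries each), a difference of 0.09 (interval -0.17 to 0.34). Under total-read scaling Bmp2 passed as higher (0.44, adjusted p = 0.00838 in limma), where the median of all genes was 0.25. The Wnt signals that maintain pericentral hepatocytes, and Rspo3, which amplifies them, did not pass under the deposited scaling. Wnt2 had a difference of 0.22 (interval -0.15 to 0.60) and Wnt9b of -0.20 (interval -0.46 to 0.07). That of Rspo3 was 0.27 (interval 0.04 to 0.50, adjusted p = 0.0588 in limma). For 326E against vehicle 0 of these 5 genes passed, with differences from -0.15 for Wnt2 to 0.14 for Wnt9b.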
